A study of Mus musculus with 6 samples.

Results

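The Slc25 family comprises the carriers that exchange metabolites across the inner membrane of mitochondria. Its members were taken as the probe sets annotated to a single gene symbol that begins with Slc25a and a digit, which gave 93 of the 45037 probe sets tested and 44 of the 18193 named genes. The rule reads gene symbols alone. Of the 44 genes, 21 had 1 probe set and 23 had several, up to 8 for Slc25a5.

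The series compared the cortex of HtrA2 wild type mice with that of HtrA2 knockout littermates, all at postnatal day 29, with 3 arrays per genotype. HtrA2 is a protease that sits between the outer and inner mitochondrial membranes, the space that metabolites cross on their way to the carriers. The cortex was chosen by the submitters as a region without evidence of neuron loss. The labels do not say whether each array came from its own animal, so p-values here measure the spread between these samples.

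Slc25 proteins share a fold of repeated pairs of membrane-spanning helices with the substrate site in the middle, which opens to one side of the membrane at a time. They bring ADP and phosphate to ATP synthase and send ATP out. They also carry amino acids, dicarboxylates, nucleotides, coenzymes and iron between cytosol and matrix. In the brain the aspartate/glutamate and oxoglutarate carriers form the malate-aspartate shuttle, which passes reducing equivalents from glycolysis to the respiratory chain.

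Levels are RMA values on the log2 scale and differences are knockout minus wild type, with ± for the standard error of a difference and n = 3 per group. Each probe set was tested with limma, p-values were adjusted (Benjamini-Hochberg) across the 45037 probe sets, and a probe set counts as called at an adjusted p under 0.05. Levels are compared only within a probe set, since probe sets differ in how brightly they report a transcript.

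Of Htra2's probe sets, 1 fell by 2.27 and the other rose by 1.11 in the knockout. Neither can be placed on the deleted or the retained stretch of the gene from the files used here. As markers of cortex, Snap25 of neurons read 13.88 on each wild type array and 13.64 to 13.73 in the knockout (difference -0.19, limma adjusted p = 0.211). Mbp of oligodendrocytes read 13.83 to 14.10 on all arrays, with a difference of -0.14. Mobp, Mog and Mag of oligodendrocytes differed by -0.20, -0.31 and -0.36. Tubb3, Syt1, Nefl and Rbfox3 of neurons differed by -0.44, -0.08, -0.08 and -0.05. None of these was called. Alb of liver read 5.43 to 5.83. Among the markers of cell types in cortex, Neurod6 of excitatory neurons fell by 0.66 and Gpr17 of oligodendrocyte progenitors by 0.80. P2ry12 and Tmem119 of microglia fell by 0.60 and 0.47, and all of these were called. The other markers of these cells were not called. Slc17a7 and Tbr1 of excitatory neurons differed by 0.04 and -0.51, and Cspg4 and Pdgfra of progenitors by -0.06 and -0.29. Cx3cr1 and Csf1r of microglia differed by -0.41 and -0.22. The part of these cells in the carriers' values was not tested. Wild type replicate 2 stood apart in Ttr, a transcript of the choroid plexus, at 12.86 against 8.46 and 8.62 on the other wild type arrays. The mean of the Y-linked genes was 3.89 and 3.93 on wild type replicate 1 and knockout replicate 3 and between 5.90 and 6.00 on the other arrays. Knockout replicate 2 correlated least with its own group (mean r over all probe sets 0.99336, against 0.99502 or more on the other 5 arrays).

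Differences in carrier transcripts between the genotypes were small, and 1 gene, Slc25a28, rose. It was the 1 called member among 93 probe sets, or 1.08%, where 1.77% of all probe sets were called and 0.884% were called as higher. By gene the count was 1 of 44, where 3.3% of all named genes had a called probe set. At an unadjusted p under 0.05 there were 19 member probe sets, 10 higher and 9 lower, or 20.4% against a background of 16.9%. The family median was -0.004, that of all probe sets 0.005, and 46 members lay higher and 47 lower. In tissue, fewer cells of a type and less RNA per cell cannot be told apart.

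**Figure D1:**
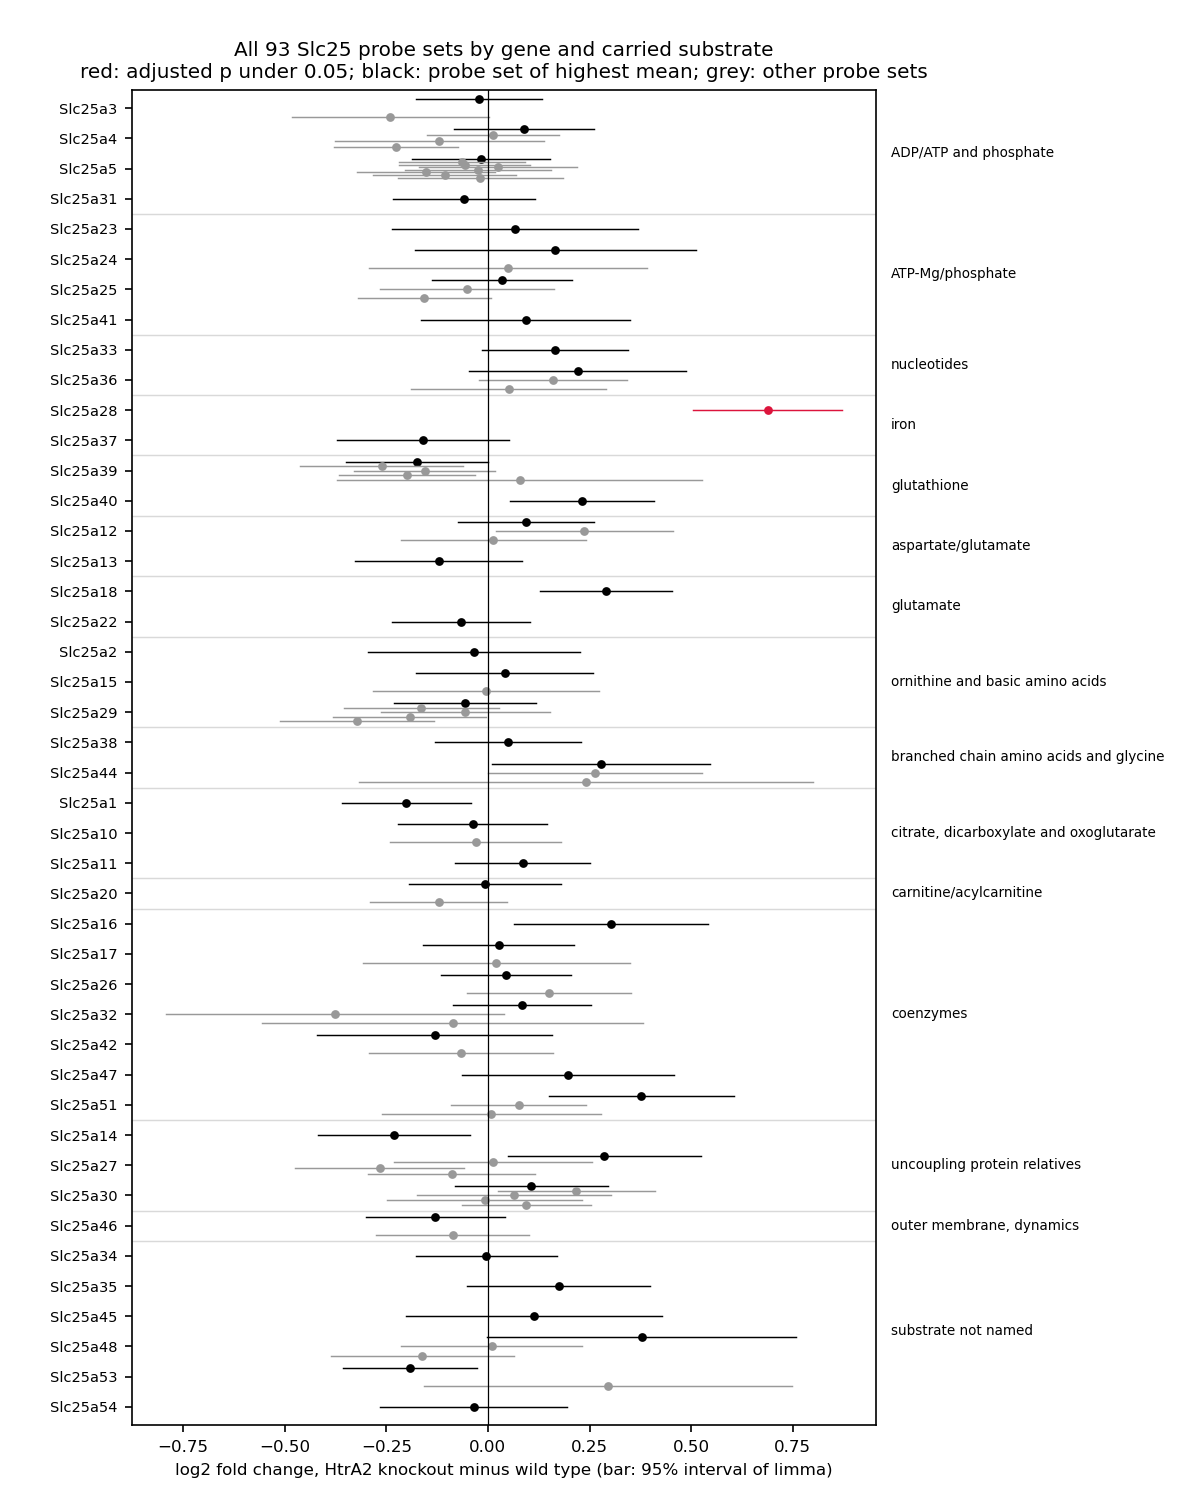
Log2 fold change (knockout minus wild type, x axis) of all 93 Slc25 probe sets with limma's 95% interval, by gene and by carried substrate; black marks a gene's probe set of highest mean, grey its other probe sets and red an adjusted p under 0.05. Slc25a28 at 0.69 stands alone on the right, and the other points lie between -0.38 and 0.38.

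The intervals bound the difference in signal at each probe set, taken singly and with no adjustment for the number tested. For 87 of the 93 member probe sets, or 93.5%, the 95% interval of the difference lay wholly within a 1.5-fold change in either direction, and for all 93 within a 2-fold change. Over all probe sets the shares were 90.5% and 98.9%. The 87 include 17 of the 19 member probe sets that did not reach a level of 6 on 3 or more arrays. At those, signal over background limits what a small difference can show. The 6 intervals that reached past 1.5-fold belonged to Slc25a28, Slc25a32, Slc25a44, Slc25a48, Slc25a51 and Slc25a53. On 31 member probe sets the groups did not overlap, 13 higher and 18 lower in the knockout, or 33.3% against 23.2% of all probe sets. Of the 93, 74 reached a level of 6 on 3 or more arrays. Among probe sets that did, the genotypes were apart at 37.8% of members and 32.6% of all.

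Slc25a28 encodes mitoferrin-2, which brings iron into mitochondria for heme and iron-sulfur cluster synthesis and is made in many tissues. Its probe set read 9.03, 9.12 and 9.09 on the wild type arrays and 9.79, 9.66 and 9.85 on the knockout arrays. Every knockout array lay above every wild type array, and the SD was 0.0462 in wild type and 0.0996 in the knockout. The gene rose by 0.69 ± 0.0794 on the log2 scale, which is 1.61-fold (95% interval 0.51 to 0.87 on the log2 scale, limma adjusted p = 0.0114). With any 1 array left out the difference lay between 0.65 and 0.74, but the call did not always hold. The adjusted p was 0.0877, 0.0794 and 0.0597 without wild type replicates 1, 2 and 3 and 0.0557 without knockout replicate 3. The number of calls among all probe sets also dropped in those fits, from 796 to 70, 65, 107 and 103.

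**Figure D2:**
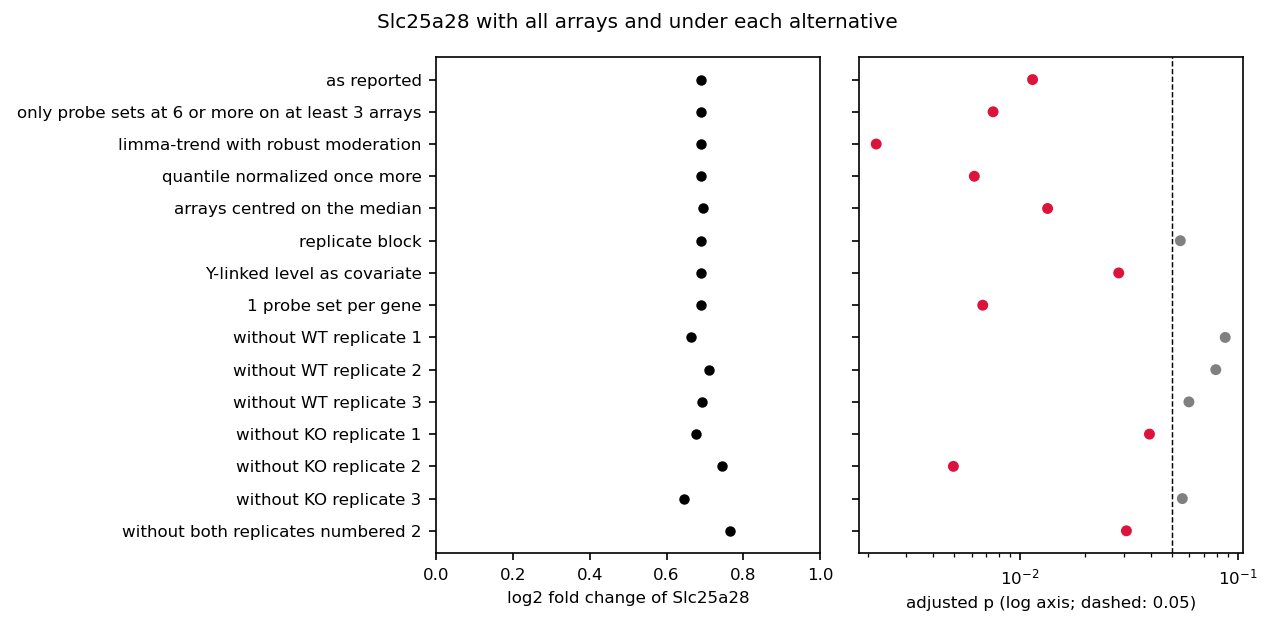
Log2 fold change of Slc25a28 (left, x axis from 0 to 1) and its adjusted p (right, log axis, dashed line at 0.05) as reported and under each alternative, 1 row each; red points lie under 0.05. The difference stays between 0.65 and 0.77 while the adjusted p crosses the line in 5 of the 14 alternatives.

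The other mitoferrin, Slc25a37, which serves heme synthesis in developing red cells, did not pass the test. Its probe set read 8.44, 8.42 and 8.43 in wild type and 8.42, 8.10 and 8.29 in the knockout, a difference of -0.16 ± 0.092 (limma adjusted p = 0.442). The knockout arrays lay lower, the lowest being replicate 2, and replicate 1 was level with wild type to the second decimal. The difference between the 2 mitoferrins' log2 fold changes was 0.85, the largest of 7 pairs of related carriers compared. An exact two-sided permutation test over the arrays gave p = 0.10, the smallest that 3 against 3 arrays allow, and 0.175 after adjustment over the 7 pairs. From the lists of other carriers and partner enzymes, 7 genes of heme, iron-sulfur cluster or iron-linked export (Alas1, Fech, Nfs1, Iscu, Abcb6, Abcb8 and Abcb10) had 0 of 16 probe sets called by limma and 1 (Abcb6) at an unadjusted p under 0.05, with differences between -0.21 at Abcb6 and 0.14 at Fech. Over all probe sets 16.9% had an unadjusted p under 0.05. Alas2, the erythroid first enzyme of heme synthesis and a blood marker here, fell by 0.87 and hemoglobin Hba-a1 differed by -0.11. The part of blood in the values of the mitoferrins was not tested.

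The 250 bases before the start of Slc25a28 are shown since it was the 1 called member. They come from RefSeq's promoter table (build GRCm38.p6, chr19:43674882-43675131, minus strand), which held 34 of the 44 member genes. Capitals mark the CCAAT box, the letters CCAAT on either strand.
Slc25a28 promoter: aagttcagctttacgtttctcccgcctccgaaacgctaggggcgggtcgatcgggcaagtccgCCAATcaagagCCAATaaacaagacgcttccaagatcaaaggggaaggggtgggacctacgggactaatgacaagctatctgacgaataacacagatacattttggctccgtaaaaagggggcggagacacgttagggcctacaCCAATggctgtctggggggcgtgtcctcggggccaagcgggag
The box occurs 3 times on the strand shown, beginning 187, 176 and 43 bases before the start. Windows from 250 bases before the start to 50 after it held the box for 18 of the 34 member genes and in 37.4% of all 32851 promoters. A gene counted if any of its windows held the box, while the share is of single promoters, so the units differ. The amino acid response motif TGATGNAAN was searched on both strands and occurred in 3.95% of all promoters and in 0 of the 34 member genes. The palindromic core motif of NRF1, a regulator of many genes of mitochondrial proteins, occurred in 0.971% of all promoters and in 0 of the 34. The CCAAT box was picked after the sequence was seen. These searches describe letters in this window and no binding.

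Carriers of ADP, ATP and phosphate, which feed ATP synthase, gave 0 of 15 calls by limma and 1 at an unadjusted p under 0.05. Over all probe sets 16.9% had such a p, which also stands beside the counts of the other substrate groups. Slc25a4, the ADP/ATP carrier of muscle, heart and brain, had 4 probe sets with differences between -0.23 and 0.09. The 1 with groups apart read 7.15, 7.17 and 7.18 in wild type and 6.93, 6.96 and 6.94 in the knockout (difference -0.23 ± 0.0663, limma adjusted p = 0.136). Its SD was 0.0142 in wild type and 0.0175 in the knockout, and the gene's other 3 probe sets had overlapping groups. Slc25a5, the ADP/ATP carrier of most tissues, had 8 probe sets between -0.15 and 0.02, of which 6 carry the array's suffix for probes that may match other transcripts. Slc25a3, the phosphate carrier, differed by -0.02 ± 0.067 at its probe set of highest mean, with an interval from -0.18 to 0.13. Slc25a31, the ADP/ATP carrier of testis, read 3.39 to 3.60 on all arrays, and its difference was -0.06.

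The carriers of ATP-Mg and phosphate set the adenine nucleotide content of the matrix. They also gave 0 calls by limma at 7 probe sets and 0 at an unadjusted p under 0.05. Slc25a23, Slc25a25 and Slc25a41 differed by 0.07, 0.03 and 0.09 at their probe sets of highest mean. Slc25a24 read 6.79, 6.78 and 6.89 in wild type and 7.19, 6.61 and 7.16 in the knockout (difference 0.17 ± 0.15, limma adjusted p = 0.658). Knockout replicates 1 and 3 lay above wild type and replicate 2 below it. The pyrimidine nucleotide carriers Slc25a33 and Slc25a36, which supply mitochondrial DNA and RNA synthesis, differed by 0.16 ± 0.0779 and 0.22 ± 0.116, and all 3 probe sets of Slc25a36 lay higher, between 0.05 and 0.22.

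**Figure D3:**
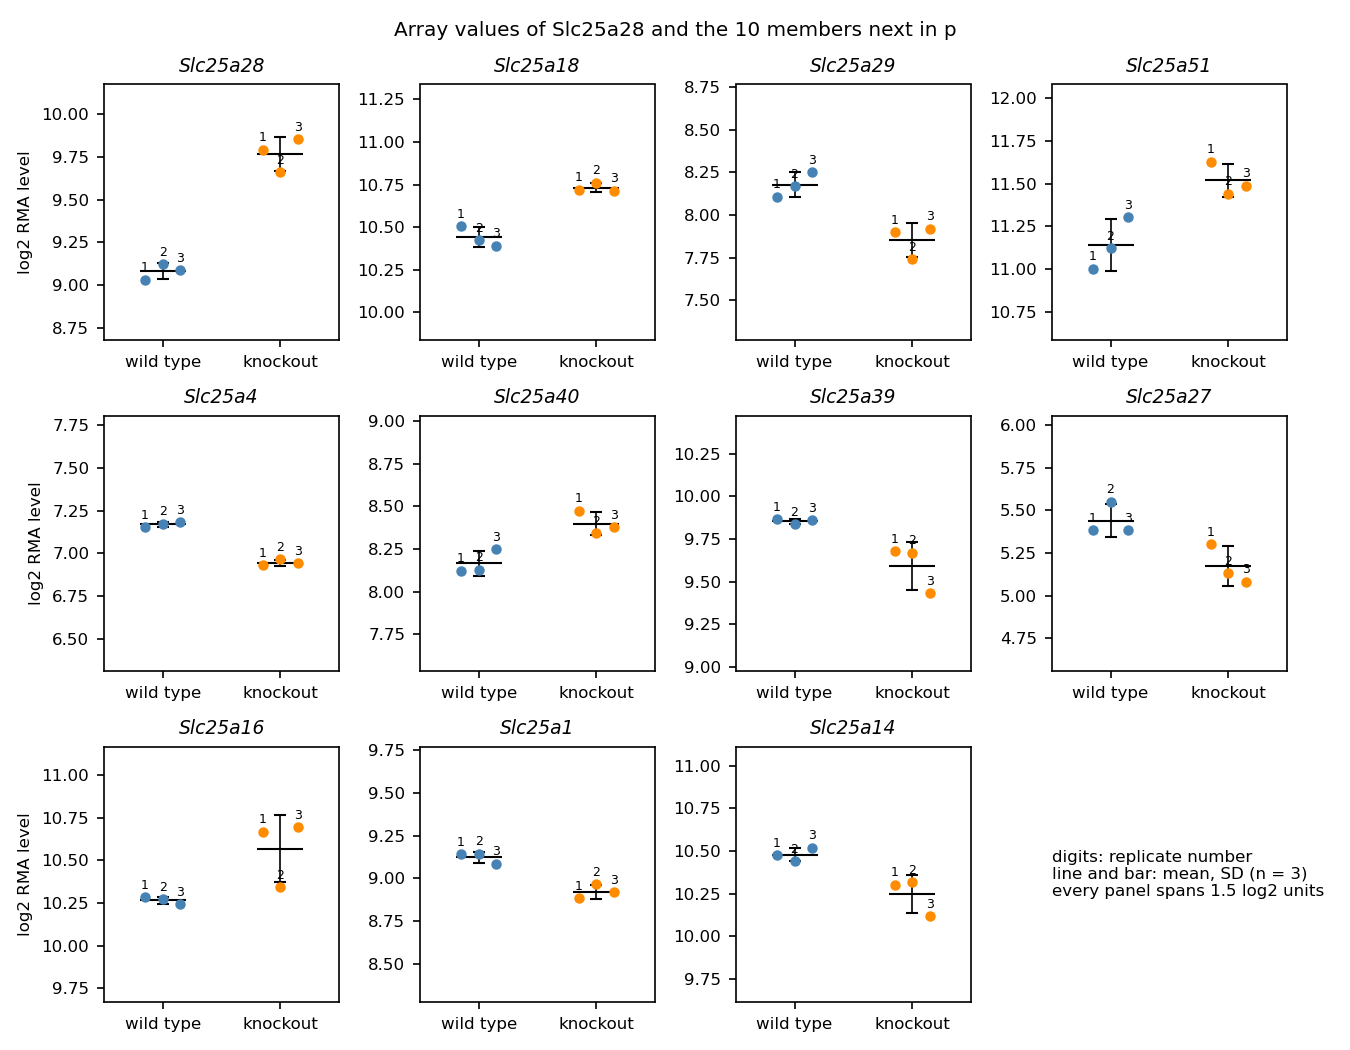
Log2 RMA level on each array (y axis, every panel spanning 1.5 log2 units) for Slc25a28 and the 10 members with the next smallest p, each at its probe set of smallest p; blue points are wild type, orange points knockout, and lines and bars the mean and SD (n = 3). Slc25a28 moves by 0.69, and the other 10 by 0.20 to 0.38 in either direction.

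Among carriers of amino acids, neither glutamate carrier passed the test. Slc25a18, a glutamate carrier enriched in astrocytes, read 10.51, 10.42 and 10.39 in wild type and 10.72, 10.76 and 10.71 in the knockout. The groups were apart and the difference was 0.29 ± 0.0706 (1.22-fold, limma adjusted p = 0.0886), which missed the threshold. The adjusted p was 0.0447 without dim probe sets and 0.0262 with limma-trend, and between 0.0513 and 0.34 in the other 12 alternatives. Slc25a22, the other glutamate carrier, differed by -0.07 ± 0.0738, and its interval ran from -0.24 to 0.10. The gap between the pair was 0.36 (exact permutation p = 0.10, the smallest possible, and 0.175 adjusted over 7 pairs). Beside Slc25a18, the 5 astrocyte markers had a mean of 10.81 to 10.89 in wild type and 10.74 to 10.86 in the knockout, with Gfap 0.63 higher and Aqp4 at -0.59, both called. Their part in the value of Slc25a18 was not tested.

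The aspartate/glutamate carriers of the malate-aspartate shuttle gave 0 of 4 calls by limma and 1 at an unadjusted p under 0.05. Slc25a12, the form of brain and muscle, had 3 probe sets between 0.01 and 0.24, and its probe set of highest mean differed by 0.09 ± 0.0729. Slc25a13, known from liver, differed by -0.12 ± 0.0888 at a probe set that read 5.52 to 5.84. The oxoglutarate carrier Slc25a11, which completes the shuttle, differed by 0.09 ± 0.072, with groups apart. The shuttle's enzymes Got1, Got2, Mdh1 and Mdh2 differed by -0.12 to 0.22 (smallest limma adjusted p 0.356).

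The basic amino acid carrier Slc25a29 was lower at all 5 of its probe sets, by -0.06 to -0.32, with groups apart at 3. At the probe set of smallest p it read 8.11, 8.17 and 8.25 in wild type and 7.90, 7.74 and 7.92 in the knockout (difference -0.32 ± 0.0826, limma adjusted p = 0.0994). It did not pass the test. The ornithine carriers Slc25a15 and Slc25a2, which serve the urea cycle, differed by 0.04 and -0.03. Slc25a44, which carries branched chain amino acids, was higher at all 3 probe sets, by 0.24 to 0.28, with overlapping groups at each. Beside it, Bcat1, the cytosolic aminotransferase of those amino acids, was higher at all 3 probe sets, by 0.07 to 0.74. Bcat1 was called at 1 of them (0.74 ± 0.0914, limma adjusted p = 0.0139), while the mitochondrial Bcat2 differed by 0.04. The glycine carrier of heme synthesis, Slc25a38, differed by 0.05 ± 0.0778.

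Carriers of tricarboxylic acid cycle intermediates showed small differences. Slc25a1, which exports citrate for lipid synthesis, read 9.14, 9.14 and 9.09 in wild type and 8.88, 8.96 and 8.92 in the knockout (difference -0.20 ± 0.0689, limma adjusted p = 0.189). The groups were apart. Acly, the enzyme that splits the exported citrate, differed by -0.28 ± 0.069 (adjusted p = 0.0924) at the probe set of smallest p among 6. The dicarboxylate carrier Slc25a10 differed by -0.04 and -0.03 at its 2 probe sets. Slc25a20, which brings acylcarnitines in for fatty acid oxidation, differed by -0.01 ± 0.0815 at its probe set of highest mean and by -0.12 at the other, and among Cpt1a, Cpt1c, Cpt2 and Crat the smallest limma adjusted p was 0.427.

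Carriers of coenzymes had 0 of 14 probe sets called by limma and 2 at an unadjusted p under 0.05, both higher. That is 14.3% against 16.9% of all probe sets. Slc25a51, the NAD carrier of the inner membrane, read 11.002, 11.12 and 11.30 in wild type and 11.63, 11.44 and 11.49 in the knockout. The groups were apart, and the difference was 0.38 ± 0.0986 (1.30-fold, limma adjusted p = 0.105). The adjusted p was 0.0391 with limma-trend and between 0.0585 and 0.352 in the other 13 alternatives. The gene's other probe sets differed by 0.08 and 0.01. Slc25a16, grouped with coenzyme A carriers, read 10.28, 10.27 and 10.24 in wild type and 10.67, 10.34 and 10.70 in the knockout (difference 0.30 ± 0.104, limma adjusted p = 0.188). Knockout replicate 2 lay near wild type and the other knockout arrays well above it. Slc25a42, the coenzyme A carrier, was lower at both probe sets (-0.13 and -0.07), and Slc25a26, which imports S-adenosylmethionine, was higher at both (0.15 and 0.04). Slc25a47, a carrier known from liver, differed by 0.20, and Slc25a17, of peroxisomes, by 0.03 and 0.02.

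Slc25a32 carries folate and flavin nucleotides into mitochondria, and its values stood beside the strongest rises of the partner enzymes. Its 3 probe sets differed by 0.08, -0.09 and -0.38, with limma adjusted p of 0.648, 0.884 and 0.347. At the 1 with the highest mean the interval ran from -0.09 to 0.25, so a rise of more than 0.25 lay outside it. Shmt2, the mitochondrial enzyme that passes a carbon from serine to folate, was higher at all 4 of its probe sets, by 0.46 to 1.60. Shmt2 was called at 2 of them, with the largest rise 1.60 ± 0.0806 (3.03-fold, limma adjusted p = 0.000452). Mthfd2, the next enzyme of mitochondrial folate metabolism, rose at both of its probe sets, by 1.43 ± 0.157 and 0.95 ± 0.165 (limma adjusted p = 0.0097 and 0.0359). Of 102 probe sets of 43 enzymes that make or use carried substrates, 5 were called, all higher and all of Shmt2, Mthfd2 or Bcat1. That is 4.90% against 1.77% of all probe sets (0.884% called higher). The list was chosen with earlier results of these data known, so its share is a description and was not tested. The list's median was -0.008. Without wild type replicate 1, 2 or 3 the number called was 2, 2 and 3, beside 70, 65 and 107 of all 45037 probe sets. Without knockout replicate 2 it was 10, beside 3037, or 6.74%.

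Both carriers linked to mitochondrial glutathione missed the threshold, on opposite sides of 0. Slc25a40 read 8.12, 8.13 and 8.25 in wild type and 8.47, 8.34 and 8.38 in the knockout (difference 0.23 ± 0.0771, limma adjusted p = 0.178). Slc25a39 was lower at 4 of its 5 probe sets with groups apart at each, by -0.16 to -0.26, and the fifth differed by 0.08. Most of those 4 carry the array's suffix for probes that may match other transcripts. At the probe set of smallest p, Slc25a39 read 9.87, 9.84 and 9.86 against 9.68, 9.67 and 9.43 (difference -0.26 ± 0.0872, limma adjusted p = 0.179). The gap between the genes, each at its probe set of highest mean, was -0.41 (exact permutation p = 0.10, the smallest possible, and 0.175 adjusted over 7 pairs). With both genotypes at 3 arrays, this test could not have called it.

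Relatives of the uncoupling proteins, brain-expressed carriers with debated substrates, had 0 of 10 probe sets called by limma and 4 at an unadjusted p under 0.05. Of those 4, 2 were higher and 2 lower, and over all probe sets 16.9% had such a p. Slc25a14 read 10.48, 10.44 and 10.52 in wild type and 10.30, 10.32 and 10.12 in the knockout (difference -0.23 ± 0.0812, limma adjusted p = 0.197). Slc25a27 was the 1 gene of the family with groups apart in both directions. Its probe set of highest mean read 8.30, 8.14 and 7.95 against 8.33, 8.43 and 8.48 (difference 0.29 ± 0.103). Another read 5.38, 5.55 and 5.38 against 5.30, 5.13 and 5.08 (difference -0.27 ± 0.09), a level below 6 on every array. Slc25a30 was higher at 4 of 5 probe sets, by up to 0.22 ± 0.0842, and 3 of them had groups apart. Of those 3, 1 read 3.72 to 3.86 on all arrays. At the others the highest wild type and lowest knockout arrays read 8.060 and 8.062, and 7.595 and 7.606.

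Slc25a46, a member of the outer membrane that takes part in mitochondrial shape, was lower at both probe sets (-0.13 and -0.09). The remaining members, placed in no substrate group, gave 0 calls by limma and 1 probe set at an unadjusted p under 0.05. Slc25a34, Slc25a35, Slc25a45 and Slc25a54 differed by -0.004, 0.17, 0.11 and -0.03. Slc25a53 differed by -0.19 at one probe set and 0.29 at the other. Slc25a48 read 5.62, 5.90 and 5.85 in wild type and 5.88, 6.55 and 6.08 in the knockout (difference 0.38 ± 0.165, limma adjusted p = 0.298). Knockout replicate 2 was the highest array and replicate 1 lay within wild type.

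Probe sets of the same gene often parted. Of the 23 genes with several, 13 had every probe set on the same side of 0 and 10 had some on each side. The widest spans were 0.55 at Slc25a27 and 0.54 at Slc25a48. Below the level of 6 on at least 3 arrays lay 19 of the 93 probe sets, and for 6 genes no probe set reached it (Slc25a2, Slc25a13, Slc25a31, Slc25a41, Slc25a48 and Slc25a54). Of all member probe sets, 18 carry a suffix for probes that may match more than 1 transcript or gene. In the gene order of GRCm38.p6 the members nearest to Htra2 on its chromosome were Slc25a26, Slc25a18 and Slc25a13, with 155, 297 and 477 protein-coding genes between.

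**Figure D4:**
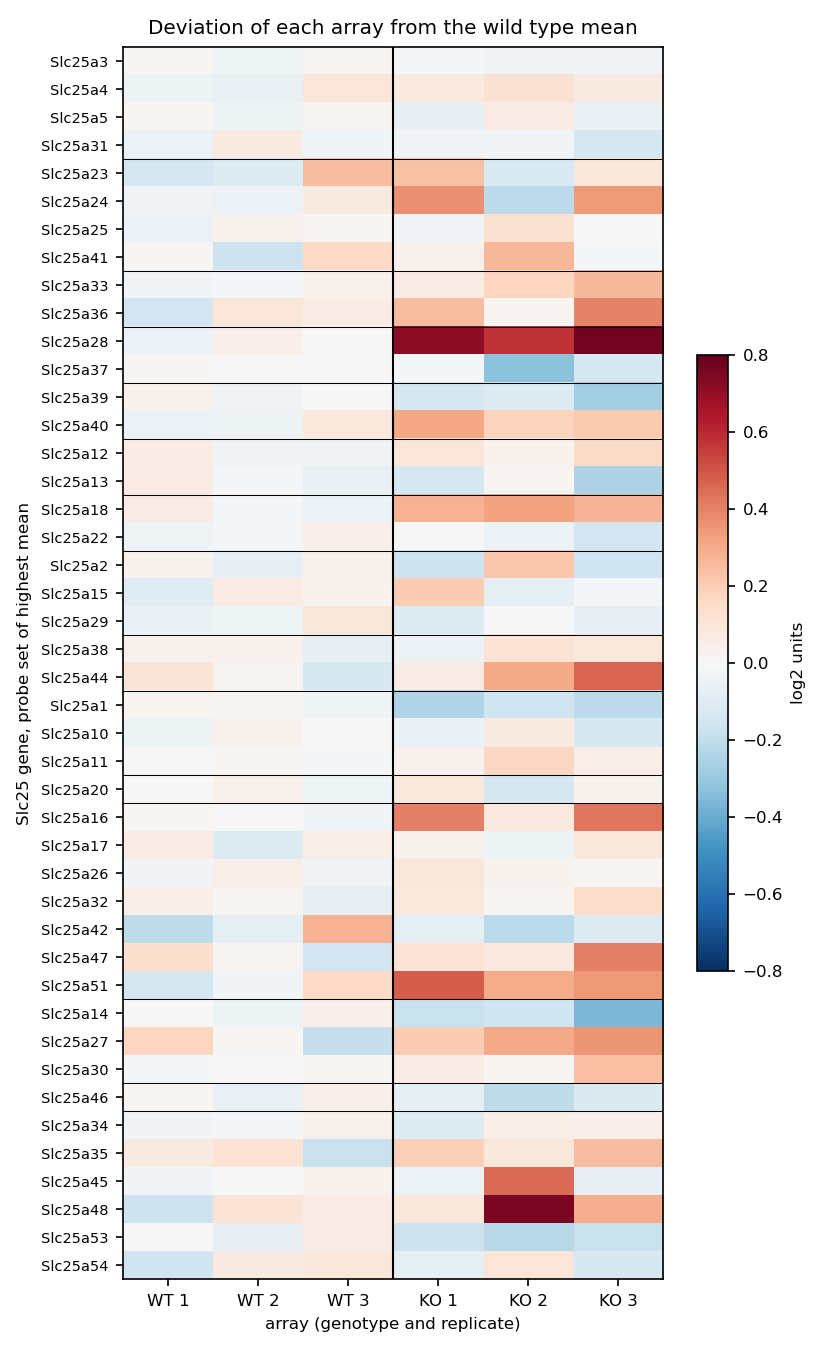
Deviation of each array (columns) from the wild type mean in log2 units (colour, -0.8 to 0.8) for the 44 Slc25 genes at their probe set of highest mean, ordered by carried substrate with lines between groups. Slc25a28 is the 1 row dark red on all knockout arrays, and knockout replicate 2 parts from replicates 1 and 3 at genes such as Slc25a24, Slc25a16 and Slc25a48.

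Knockout replicate 2 lay outside the range of knockout replicates 1 and 3 at 77 of the 93 member probe sets, or 82.8%, and at 80.1% of all probe sets. Wild type replicate 2 lay outside the other wild type arrays at 68.8% of the member probe sets and 58.9% of all. Without knockout replicate 2, 5 member probe sets were called, all higher, or 5.38% against a background of 6.74%. Beside Slc25a28 these were Slc25a16 (0.42), Slc25a24 (0.35), Slc25a44 (0.38) and the higher of Slc25a53's probe sets (0.55), with limma adjusted p of 0.0179, 0.0338, 0.0404 and 0.02. That probe set of Slc25a53 read 7.96, 7.74 and 7.76 in wild type and 8.42, 7.62 and 8.32 in the knockout, and these 4 genes passed in no other setting tried. The 5 meningeal fibroblast markers, none of them called by limma, had means of 8.73, 8.42 and 8.98 on knockout replicates 1, 2 and 3 and 8.05 to 8.41 in wild type. Replicate 2 was the lowest knockout array for Col1a1, Col1a2, Lum and Ogn, but not for Dcn, which read 10.73, 10.69 and 10.62. Of the pericyte markers, Pdgfrb read 9.28, 8.38 and 9.54 on those arrays and 8.87 to 9.03 in wild type. Rgs5 read 11.30, 11.19 and 11.12, with replicate 3 lowest, and 11.11 to 11.34 in wild type. The part of these cells in the values of the 4 genes was not tested.

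Mitochondrial transport proteins outside the family gave no call with all arrays. Of 52 probe sets of 24 such genes, 0 were called by limma. An unadjusted p under 0.05 was found at 9, or 17.3% against 16.9% of all probe sets. Limma-trend called 1, beside 1770 of all 45037. Without knockout replicate 2 the number called was 6, where 6.74% of all probe sets were. Sfxn1, which imports serine for mitochondrial folate metabolism, was higher at both probe sets, by 0.32 ± 0.0802 and 0.30 ± 0.0833 (limma adjusted p = 0.0936 and 0.124). The groups were apart at both Sfxn1 probe sets. Tspo, of the outer membrane, was higher at all 3 probe sets, by 0.19 to 0.46 (smallest adjusted p 0.18). The outer membrane channels Vdac1, Vdac2 and Vdac3 differed by -0.06 to 0.11 and the pyruvate carrier subunit Mpc1 by 0.06.

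The respiratory chain and ATP synthase, which work in the same membrane, had 7 of 180 probe sets called, or 3.89% against 1.77% of all probe sets, of which 4 were higher and 3 lower. With 1 probe set per gene, 3 of 91 were called, beside 758 of all 18193. With the fit limited to probe sets that reached a level of 6 on 3 or more arrays, 12 of 159 were called, beside 1601 of 25385. The list's median was -0.02. Without any 1 wild type array or knockout replicate 3 the number called was 2, beside 65 to 107 of all probe sets. It was 4 without knockout replicate 1, beside 377, and 14 without knockout replicate 2, beside 3037, or 6.74%. Cox6a2, a subunit of complex IV known from muscle, rose at 2 probe sets by 1.08 ± 0.0761 and 0.94 ± 0.0892 (limma adjusted p = 0.00173 and 0.00507). Ndufs4, a subunit of complex I, fell by 0.68 ± 0.0957 at 1 of its 4 probe sets (limma adjusted p = 0.02). It differed by 0.11 at its probe set of highest mean and by 0.12 and -0.06 at the rest. Atp5g1, a subunit of ATP synthase, fell by 0.78 at 1 of its 2 probe sets, which read 5.31 to 6.42, and differed by -0.08 at the other. Ndufab1, of complex I, fell by 0.42 at 1 of its 5, which read 3.90 to 4.40, and differed by -0.19 to -0.02 at the rest. Cox7a2l was higher at all 3 of its probe sets. It was called at 2, by 0.38 and 0.36, and differed by 0.34 at the other (limma adjusted p = 0.0575). These lists were chosen with earlier results of these data known, and whether the family differs from them was not tested.

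**Figure D5:**
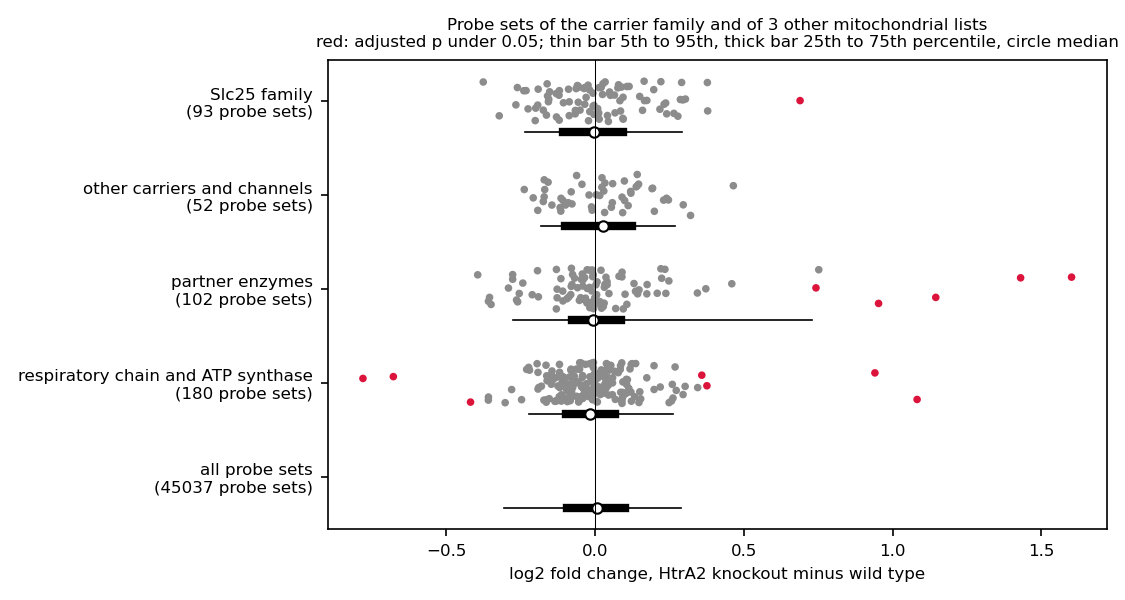
Log2 fold change (knockout minus wild type, x axis) of each probe set (points, spread vertically for legibility) of the Slc25 family, the other carriers and channels, the partner enzymes and the respiratory chain, with red for an adjusted p under 0.05; below each, a circle marks the median, a thick bar the 25th to 75th and a thin bar the 5th to 95th percentile, also for all probe sets. The family's medians and bars lie close to those of all probe sets, with Slc25a28 as its 1 red point.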

How the data were processed

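RNA from mouse cortex was hybridised to 1 array per sample, 3 per genotype. The deposited table holds log2 values that the authors made with RMA, per the submitters' processing notes, in which no version is given here; base 2 fits their range but is not stated. RMA forces the arrays to a common distribution, which hides any shift of the whole transcriptome. Arrays give no counts, and their number limits the precision. Of 45101 probe sets, 64 array controls were left out. The platform annotation gave 34945 of the 45037 tested 1 gene symbol, 932 several and 9160 none; 34741 were matched by gene ID to RefSeq (GRCm38.p6). The rule left out 1 further Slc25a37 probe set that also names another gene.

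Limma 3.58.1 in R 4.3.3 (lmFit, eBayes, genotype as the only term) was run on all probe sets, with no filter, after it had been tested on simulated data. Members, lists, pairs and tests were chosen with earlier results of these data known. Array values are given for called members and the 10 genes next in p; those of Slc25a24, Slc25a37, Slc25a48, Slc25a53 and another Slc25a27 probe set were picked after they were seen. From the lists, called genes and genes next to a member's role are named. Settings also tried were limma-trend with robust moderation, removal of dim probe sets, a further quantile normalization, median centring, a Y-linked covariate, a replicate block, 1 probe set per gene, other thresholds and omission of each array. Omission of both replicates numbered 2 was chosen after seeing the data.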

Additional observations from a re-analysis of the deposited data

How the results depend on the processing

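Counts of calls depend on the setting, and with 3 arrays per genotype on single arrays. Across 149 alternative values of the 11 members with the smallest p, 140 stayed on their side of the threshold, 5 lost a call (all Slc25a28), 4 gained one (Slc25a18, Slc25a51 and Slc25a16) and 0 changed sign. As reported, 1 Slc25 probe set was called, with 796 of all probe sets, 0 of the other carriers, 5 of the partner enzymes and 7 of the respiratory chain. Without dim probe sets these were 2 of 74, 1601 of 25385, 0 of 37, 8 of 77 and 12 of 159. With limma-trend, on all probe sets, they were 3, 1770, 1, 7 and 20. At a threshold of 0.10 they were 3, 2035, 1, 9 and 12, and at 0.01 they were 0, 79, 0, 3 and 2. With a covariate for Y-linked genes 441 of all probe sets and 3 of the respiratory chain were called. With 1 probe set per gene, 3 of 43 partner enzymes, 3 of 91 respiratory chain genes and 758 of all 18193 were called. Without both replicates numbered 2, chosen after seeing the data, 314 of all, 3 of the partner enzymes and 2 of the respiratory chain were called. With any 1 array left out the counts ranged from 0 to 5 for Slc25, 65 to 3037 for all, 0 to 6 for the other carriers, 2 to 10 for the partner enzymes and 2 to 14 for the respiratory chain, each highest without knockout replicate 2. With the replicate number as a block they were 0, 154, 0, 4 and 2, and Slc25a28 had a limma adjusted p of 0.0545. Deviations of same-numbered arrays from their group means correlated at -0.196, -0.0405 and -0.169. With 3 arrays per group, these correlations cannot tell whether the numbers pair the samples. For probe sets below a level of 6, signal over background limits what a small difference can show.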
